A study of Mus musculus with 18 samples.

Results

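The 80 genes described here encode proteins of the cytosolic ribosome, measured by RNA sequencing in the left ventricle of male mice on the 129SVE background. They were chosen by symbol in GENCODE M21 (Rpl or Rps followed by a number, with at most 1 closing letter a, x or l, and Rplp0, Rplp1, Rplp2 and Rpsa). A second condition was a count of at least 10 in at least 3 libraries. Of the 49315 genes in the deposited count tables, 83 symbols matched and 80 met the count rule, 48 of the large subunit and 32 of the small subunit. Just inside the rule was Rpl6l, with at most 16 counts in a library and 10 or more in 6 libraries. Just outside were Rpl32l and Rpl39l, with at most 6 counts, and Rpl10l, a testis paralog of Rpl10, had 0 counts in every library. All 80 passed the filter on low counts that left 15778 genes tested. Of the 80, Rpl6l and Rps4l are annotated as pseudogenes in M21 and the other 78 as protein coding.

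The libraries were made from total RNA of frozen left ventricular mid wall, and there were 3 each of WT and KO males at 3, 6 and 10 weeks of age. KO mice lack, by their label, MLP, the muscle LIM protein that Csrp3 encodes, a cardiomyocyte Z-disc protein whose loss in mice is a model of dilated cardiomyopathy. The design sets each KO group against WT of the same age. The allele, the promoter or exon it removes and the number of animals behind a library are not given in the sources used here, so p-values measure the spread between these libraries, which may be partly technical.

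A ribosome is built from a large and a small subunit, each a core of ribosomal RNA carrying many small proteins. The small subunit reads the messenger RNA, the large subunit joins the amino acids, and the P stalk of the large subunit recruits the elongation factors. Most messenger RNAs of ribosomal proteins begin with a 5′ terminal oligopyrimidine tract, a run of C and T letters at the very start through which mTOR signalling and Larp1 control their translation. In the heart, ribosome content is known to rise when cardiomyocytes grow, and striated muscle carries a paralog of its own, Rpl3l, which takes the place of Rpl3 near the peptidyl transferase centre.

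Library totals ran from 14980968 to 23001047 counts. Csrp3 was not lower in KO: it was at 950.2 to 1485 CPM (counts scaled to a common library size by TMM) in the 9 WT libraries and 1133 to 3413 CPM in the 9 KO libraries, so the genotype groups rest on the labels. At each age 1 KO library was rich in atrial transcripts, with Myl4 at 118, 436 and 1144 CPM at 3, 6 and 10 weeks. Mitochondrially encoded genes took 10.997% to 16.8% of counts in WT and 7.4987% to 10.9% in KO. The WT library of 6 weeks, replicate 1, stood apart from the others for ribosomal protein genes: 65 of the 80 had their highest value of all 18 libraries in it. The count of genes called lower at 6 weeks is given with and without it, as are the values of several single genes. Other 6-week results, among them those by messenger RNA length, by promoter and for other gene lists, include it.

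Ribosomal protein messenger RNAs took between 1.42% and 2.41% of all counts in a library. In WT their share was 1.87 ± 0.244% at 3 weeks, 2.10 ± 0.276% at 6 weeks and 1.66 ± 0.02% at 10 weeks (SD, n = 3). In KO it was 1.82 ± 0.116%, 1.60 ± 0.0181% and 1.43 ± 0.00922% at the same ages (SD, n = 3). The 3 KO libraries lay below the 3 WT libraries at 6 and at 10 weeks and overlapped them at 3 weeks. With mitochondrially encoded genes left out of the total, the 10-week share was 1.92% to 1.95% in WT and 1.54% to 1.60% in KO. After TMM scaling the summed level was 16796 ± 561.61 CPM in WT and 15969.7 ± 945 CPM in KO at 10 weeks (SD, n = 3), with overlapping libraries. At 6 weeks the summed level was 21444 ± 3524 CPM in WT and 15406 ± 523 CPM in KO (SD, n = 3), and did not overlap. In bulk tissue, fewer cells of a type and less RNA per cell cannot be told apart.

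**Figure D1:**
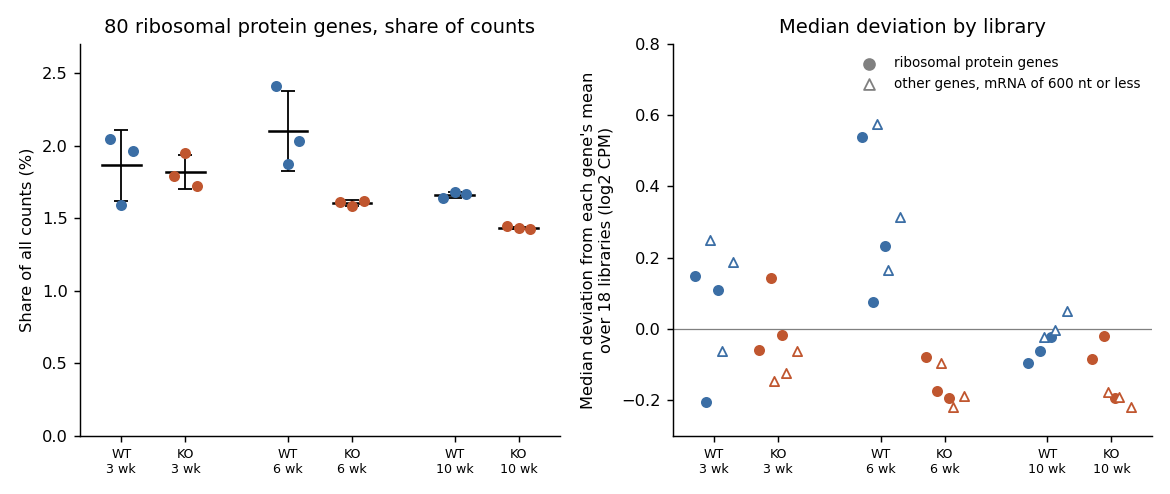
Left, share of all counts (%) held by the 80 ribosomal protein genes in each of the 18 libraries (points), with the group mean and SD (bars, n = 3). Right, the median over genes of each gene's deviation from its own mean over 18 libraries (log2 CPM), for ribosomal protein genes (filled circles) and for 216 other protein-coding genes with an mRNA of 600 nt or less (open triangles). In the right panel, WT replicates 1 and 3 of 6 weeks hold the highest values of both, led by replicate 1. WT replicate 2 of 6 weeks lies below WT replicate 1 of 3 weeks in both.

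The genes differed widely among themselves in level. Scaled by the exon length of the gene, the median of the 80 was 119.8 CPM per kb, against 3.05 CPM per kb for all genes tested, and 79 of the 80 lay above that. The highest level per kb was that of Rplp1, a stalk protein, at 1049 CPM per kb. Rps2 followed at 576, Rps15 at 516 and Rpl36 at 466 CPM per kb, all means over 18 libraries. At the low end stood the pseudogenes Rpl6l, at 0.464, and Rps4l, at 15.7 CPM per kb, and next Rpl30 at 22.2 CPM per kb. These levels depend on the annotated exons, and 12 genes share over 10% of their exon bases with another gene.

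At 6 weeks, 55 of the 80 ribosomal protein genes fell in KO (edgeR's quasi-likelihood test, Benjamini-Hochberg adjusted over all genes), where 12.8% of all genes tested were called lower. Only 2 rose, Rpl34 and Rpl13a, where 11% of all genes were called higher. The median log2 fold change of the 80 was -0.42, against 0.00 over all genes, and 75 of the 80 were below 0. In 60 of the 80 every KO library lay below every WT library, as in 22.2% of all genes. Both subunits took part, with 30 of 48 large-subunit genes (median -0.39) and 25 of 32 small-subunit genes (median -0.46) called lower. Without WT replicate 1 of 6 weeks, 31 were lower and 2 higher, and the median was -0.30. The shares of all genes above are from the fit with all libraries, and those without this library are not given.

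Among the genes called, the 5 largest falls at 6 weeks were those of Rps29, Rplp1, Rpl38, Rpl36 and Rps27. The pseudogene Rpl6l had a lower value still (-1.41) at under 1 CPM and did not pass (edgeR adjusted p = 0.11). Rps29, a zinc-binding protein of the small subunit, was at 398, 194 and 320.3 CPM in the WT libraries and 134, 124 and 114 CPM in the KO libraries. The lowest WT library was above the highest KO library, and the log2 fold change was -1.30 ± 0.22 (SE), adjusted p = 2.8e-04 by edgeR. Rpl38, a large-subunit protein needed in mouse embryos for translation of Hox messenger RNAs, was at 171, 84.7 and 129 CPM in WT and 59.2, 54.0 and 56.4 CPM in KO. Its groups did not overlap either (log2 fold change -1.18 ± 0.22 (SE), adjusted p = 6.9e-04 by edgeR). Rpl36, a large-subunit protein, was at 405, 242 and 318 CPM in WT and 158, 143 and 132 CPM in KO, a log2 fold change of -1.16 ± 0.16 (SE), adjusted p = 2.3e-05 by edgeR. Rps27, a zinc-finger protein of the small subunit, was at 323, 169 and 198 CPM in WT and 123, 105 and 107 CPM in KO, a log2 fold change of -1.04 ± 0.21 (SE), adjusted p = 0.0012 by edgeR. In these 4 genes the groups did not overlap, and WT replicate 1 was the highest library. Without it the log2 fold changes were -1.05 for Rps29, -0.91 for Rpl38, -0.95 for Rpl36 and -0.71 for Rps27, and each kept its call.

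**Figure D2:**
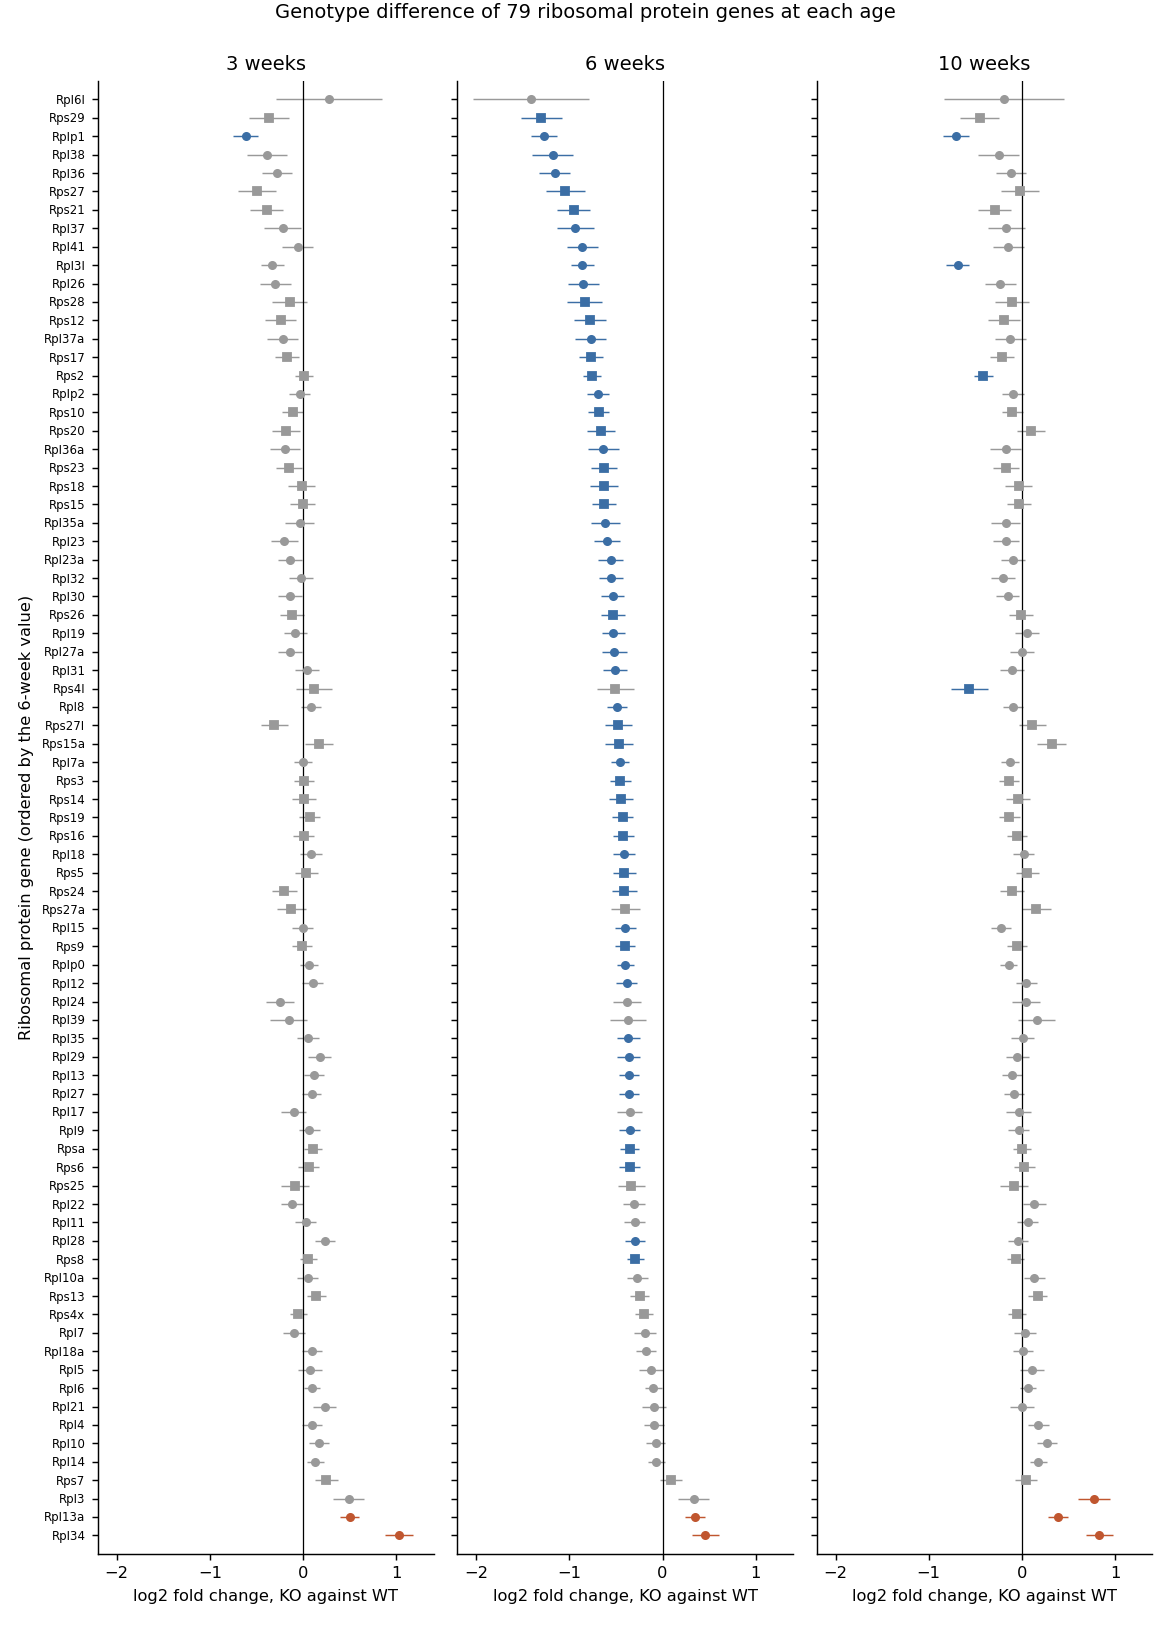
log2 fold change of KO against WT with its SE (edgeR, 3 libraries a group) for 79 of the 80 ribosomal protein genes at 3, 6 and 10 weeks, ordered by the 6-week value; circles are large-subunit and squares small-subunit genes. Blue marks genes called lower, orange genes called higher and grey genes with an adjusted p of 0.05 or more. The 6-week panel holds 55 blue points, against 1 at 3 weeks and 4 at 10 weeks.

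At 3 and 10 weeks few ribosomal protein genes differed between genotypes. At 3 weeks 3 rose and 1 fell in KO, where 8.65% and 6.68% of all genes did, and the median log2 fold change of the 80 was -0.01. At 10 weeks 4 rose and 4 fell, where 14.6% and 14.7% of all genes did, with a median of -0.05. The family thus held fewer calls than the background at both ages. Rplp1 fell at all 3 ages, and Rpl34 and Rpl13a rose at all 3. Rps2 and Rpl3l fell at 6 and 10 weeks, and Rpl3 rose and Rps4l fell at 10 weeks. Over all genes, 2.97% were called lower and 3.75% higher at all 3 ages.

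The one gene of the 80 called lower at all 3 ages was Rplp1, of the P stalk. Rplp1, which forms the stalk as a dimer with Rplp2, was at 625, 471 and 666 CPM in WT and 386, 417 and 346 CPM in KO at 3 weeks. At 6 weeks it was at 1062, 713 and 840.2 CPM in WT and 378, 341 and 365 CPM in KO. At 10 weeks it was at 554, 597 and 594 CPM in WT and 346, 386 and 337 CPM in KO. All 9 KO libraries, at 337 to 417 CPM, lay below all 9 WT libraries, at 471 to 1062 CPM. The log2 fold change was -0.62 ± 0.13, -1.27 ± 0.14 and -0.71 ± 0.13 (SE) at 3, 6 and 10 weeks, with edgeR adjusted p of 0.0032, 5.7e-07 and 4.0e-04. Rplp2 was called at 6 weeks alone (log2 fold change -0.69 ± 0.12 (SE), adjusted p = 1.2e-04 by edgeR), and was -0.04 at 3 and -0.10 at 10 weeks. Rplp0, the stalk base to which the dimers bind, was 0.06 at 3, -0.40 at 6 (edgeR adjusted p = 0.0036) and -0.14 at 10 weeks on the log2 scale. The ratio of Rplp1 to its partners was not tested.

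Rps2 and other proteins with a role of their own showed the following. Rps2, a small-subunit protein at the messenger RNA entry channel and the most abundant of the 80 by CPM, was at 1484, 1224 and 1325 CPM in WT and 785, 793 and 806 CPM in KO at 6 weeks, a log2 fold change of -0.76 ± 0.10 (SE), adjusted p = 8.2e-06 by edgeR. At 10 weeks it was at 993, 1083 and 1121 CPM in WT and 745, 846 and 808 CPM in KO (-0.41 ± 0.10 (SE), adjusted p = 0.003 by edgeR). Its groups overlapped at 3 weeks, where the log2 fold change was 0.01, and did not at 6 or 10 weeks. Rpsa, also known as the precursor of a laminin receptor, was 0.11, -0.35 and 0.00 at 3, 6 and 10 weeks on the log2 scale and passed the edgeR test at 6 weeks (adjusted p = 0.012), but not without WT replicate 1 (adjusted p = 0.093). Rpl5 and Rpl11, which with 5S ribosomal RNA can bind Mdm2 and stabilise p53, did not pass at any age, with log2 fold changes from -0.30 to 0.11.

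The muscle paralog Rpl3l fell at 6 and 10 weeks, and its widely expressed partner Rpl3 rose at 10 weeks. Their transcripts are 76.5% identical over 1176 aligned bases, so most reads can tell them apart. Rpl3l (chr17) was at 315, 352 and 383, then 466, 412 and 418, then 382, 451 and 498 CPM in the WT libraries of 3, 6 and 10 weeks. In KO it was at 316, 241 and 279, then 223, 256 and 236, then 231, 289 and 305 CPM at the same ages. The groups overlapped at 3 weeks, where 1 KO library lay above the lowest WT library, and not at 6 or 10 weeks. The log2 fold change was -0.33 ± 0.13 at 3 weeks, -0.86 ± 0.13 at 6 weeks and -0.69 ± 0.13 at 10 weeks (SE), with edgeR adjusted p of 0.082, 3.3e-05 and 2.7e-04. Rpl3 (chr15) was at 67.5, 62.7 and 67.0 CPM in WT and 127, 122 and 87.8 CPM in KO at 10 weeks, without overlap. Its log2 fold change was 0.49 ± 0.17, 0.33 ± 0.17 and 0.77 ± 0.17 (SE) at 3, 6 and 10 weeks, and only the last passed the edgeR test (adjusted p = 0.059, 0.17 and 0.002).

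The ratio of the paralogs within a library does not depend on library scaling. It was taken from Rpl3 counts alone, without those of its near copy Rpl3-ps1 (29.2 to 52.0 CPM in WT, 50.0 to 86.9 CPM in KO). The level of the ratio therefore depends on how reads that match both copies were counted. In counts, the ratio of Rpl3l to Rpl3 was 3.13 to 7.43 in WT and 1.46 to 3.48 in KO over the 3 ages. Scaled by all annotated exon bases (1643 for Rpl3l and 3119 for Rpl3) it is larger, while the principal transcripts are close in length (1375 and 1351 nt). On the exon scale the ratio was 5.94 to 8.91 in WT at 3 weeks, 9.01 to 10.6 at 6 weeks and 10.7 to 14.1 at 10 weeks. In KO it was 2.77 to 5.9993, 3.54 to 4.90 and 3.45 to 6.60 at those ages. The WT groups thus lay higher at each later age, while the KO groups overlapped one another. The log2 ratio in KO minus that in WT was -0.80 at 3 weeks, -1.19 at 6 weeks and -1.45 at 10 weeks. Exact two-sided permutation tests gave p = 0.2, 0.1 and 0.1, where 0.1 is the smallest p that 3 against 3 libraries allow. Over the 3 ages, with labels permuted within each age, the mean difference was -1.15 (exact two-sided permutation p = 0.0005, 8000 arrangements).

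**Figure D3:**
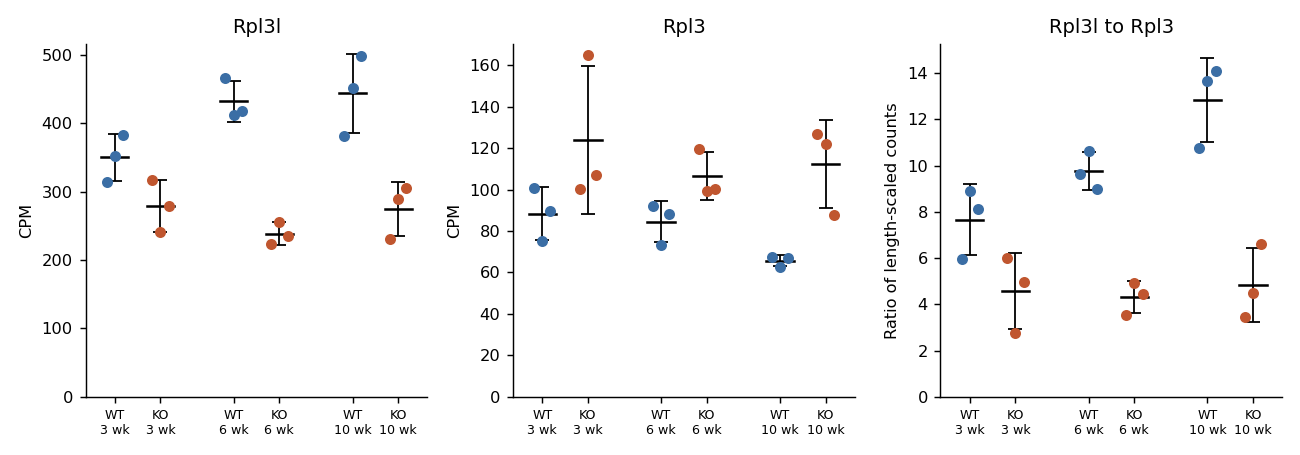
CPM of Rpl3l and Rpl3 and the ratio of their counts scaled by exon length in each library (points), with the group mean and SD (n = 3). In KO the ratio is below every WT library of the same age at 6 and 10 weeks, and at 3 weeks 1 KO library lies just above the lowest WT library.

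The ratios of the other paralog pairs were not tested. Rps27 was -0.50, -1.04 and -0.02 and its paralog Rps27l, a known p53 target in human cells, -0.31, -0.47 and 0.11 at 3, 6 and 10 weeks on the log2 scale, and both passed the edgeR test at 6 weeks only (adjusted p = 0.0012 and 0.021). Without WT replicate 1 of 6 weeks Rps27l was at -0.25 (adjusted p = 0.23), and with the gene length offset at -0.22 (adjusted p = 0.24), and its call was lost in both by edgeR. Rps4x, on the X chromosome, did not pass at any age (log2 fold changes -0.05, -0.20 and -0.05). The pseudogene Rps4l was at 16.5, 19.9 and 23.3 CPM in WT and 9.95, 12.1 and 18.1 CPM in KO at 10 weeks, with overlap, and its call (log2 fold change -0.56 ± 0.19 (SE), adjusted p = 0.033 by edgeR) was lost in 4 of the 6 cases where a library was left out. The largest move was without KO replicate 1, rich in atrial transcripts (adjusted p = 0.2). Of the pairs Rpl22 and Rpl22l1, Rpl7 and Rpl7l1, and Rpl36a and Rpl36al, Rpl36a (log2 fold change -0.63, edgeR adjusted p = 0.0075) and Rpl36al (-0.50, adjusted p = 0.0076) fell together at 6 weeks. Rpl36a lost its call without WT replicate 1 of that age (adjusted p = 0.076). Rpl22, Rpl22l1, Rpl7 and Rpl7l1 passed at no age.

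Rpl34, a large-subunit protein, was counted higher in KO at all 3 ages, but a near copy of it moved the other way. It was at 66.4, 48.3 and 71.5 CPM in WT and 116, 146 and 119 CPM in KO at 3 weeks, a log2 fold change of 1.03 ± 0.15 (SE), adjusted p = 6.2e-05 by edgeR. At 6 and 10 weeks the log2 fold change was 0.46 ± 0.15 and 0.83 ± 0.15 (SE), with edgeR adjusted p of 0.027 and 2.2e-04. The genotypes did not overlap at any age, and the 6-week call was lost in 4 of the 6 cases where a library was left out. The processed pseudogene Rpl34-ps1 (chr6:71124610-71124963, GRCm38), 99.4% identical to Rpl34 over 354 aligned bases, was at 20.961 to 55.0 CPM in the 9 WT libraries and 0.0502 to 0.568 CPM in the 9 KO libraries. With the counts of its named pseudogenes added, Rpl34 was at 107, 69.8 and 99.4 CPM in WT and 116, 146 and 119 CPM in KO at 3 weeks. At 6 weeks the sum was 156, 102 and 114 CPM in WT and 125, 112 and 106 CPM in KO, which overlapped. On these sums the log2 fold changes were 0.47, -0.11 and 0.38 at 3, 6 and 10 weeks, and none passed the edgeR test (adjusted p = 0.053, 0.67 and 0.083). The rise of Rpl34 is therefore uncertain, because the sources used here do not say how reads that match both copies were counted.

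**Figure D4:**
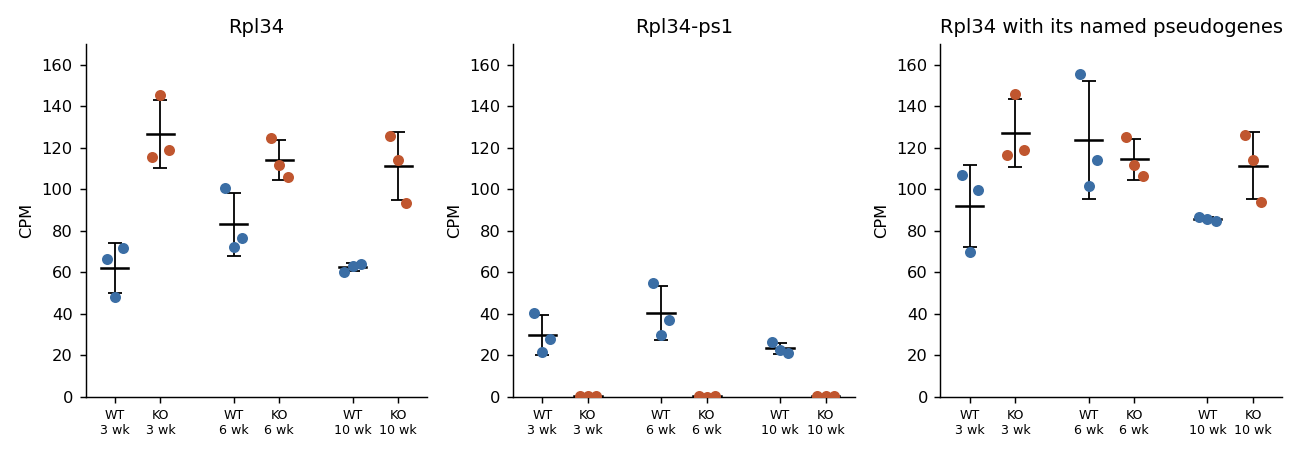
CPM of Rpl34, of Rpl34-ps1 and of Rpl34 with the counts of its named pseudogenes added, in each library (points), with the group mean and SD (n = 3). Rpl34 alone separates the genotypes at each age, Rpl34-ps1 lies near 0 in all 9 KO libraries, and the sum overlaps at 6 weeks.

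Rpl34-ps1 was not alone in this. M21 names 298 pseudogenes after 60 of the 80 genes, and 34 of them had enough counts to be tested. Of the 34, 6 were called lower in KO at all 3 ages, against 2.97% of all genes. Copies of Rps15a made up 4 of the 6: Rps15a-ps6 (chr11) was at 6.21 to 17.5 CPM in WT and 0 to 0.423 CPM in KO, and Rps15a-ps7 (chr2) at 4.61 to 13.8 and 0.0583 to 0.23 CPM. Rps15a-ps5 (chr5) was at 0.929 to 2.91 and 0 to 0.288 CPM, and Rps15a-ps8 (chr4) at 0.0943 to 0.839 CPM in WT and 0 counts in every KO library. Rps13-ps1 (chr8) was at 13.4 to 35.3 CPM in WT and 0 to 0.21 CPM in KO. In all 6 of these the 9 WT and 9 KO libraries did not overlap. The labels give the same 129SVE background for every group, and do not say whether WT and KO animals shared litters or a colony. The part of this in the values was not tested.

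The 6-week fall of the family was as large with the copies counted in, a setting chosen after the data were seen. With pseudogene counts added to 59 genes, 56 of the 80 fell and 1 rose at 6 weeks, and the median log2 fold change was -0.44. Rps13, a small-subunit protein, was -0.24 alone (edgeR adjusted p = 0.091) and -0.47 with its pseudogenes (adjusted p = 0.0031) on the log2 scale at 6 weeks. Rps15a, also of the small subunit, was -0.47 alone and -0.66 with its pseudogenes (edgeR adjusted p = 0.03 and 0.0037). Rpl3 was 0.49 alone and 0.55 with its pseudogenes at 3 weeks (edgeR adjusted p = 0.059 and 0.016), and Rpl3-ps1, 99.8% identical to Rpl3 over 1210 aligned bases, was at 29.2 to 52.0 CPM in WT and 50.0 to 86.9 CPM in KO.

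Rpl13a, on chromosome 7, was higher in KO at all 3 ages. It encodes a large-subunit protein known in human cells for a second role in the GAIT complex that silences inflammatory messenger RNAs. It was at 214, 186 and 199 CPM in WT and 268, 299 and 279.9 CPM in KO at 3 weeks. At 6 and 10 weeks it was at 247, 196 and 184 and at 212, 231 and 219.7 CPM in WT, and at 257, 270.4 and 269 and at 265, 303 and 298 CPM in KO. No KO library lay below a WT library of the same age, and the log2 fold change was 0.50 ± 0.10, 0.35 ± 0.10 and 0.39 ± 0.10 (SE) at 3, 6 and 10 weeks (edgeR adjusted p = 0.0024, 0.019 and 0.0077). Its 6-week call was lost without WT replicate 2 or 3 or KO replicate 2 or 3 of that age. Rpl13a starts 3.70 Mb from Csrp3, the gene the KO label names. Rpl18, 3.11 Mb away, had log2 fold changes of 0.08, -0.41 and 0.02 at 3, 6 and 10 weeks (edgeR adjusted p = 0.67, 0.011 and 0.93). Within 5 Mb of Csrp3, 22 of 128 tested genes were higher and 18 lower in KO at 3 weeks, 22 and 20 at 6 weeks, and 32 and 26 at 10 weeks. Over all genes the shares were 8.65% higher and 6.68% lower at 3 weeks, 11% and 12.8% at 6 weeks, and 14.6% and 14.7% at 10 weeks. The part of this position in the result was not tested, and 35.4% of the exon bases of Rpl13a overlap another gene.

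In WT, most ribosomal protein genes were at their highest at 6 weeks. In comparisons added after the data were seen, 8 of the 80 rose in WT from 3 to 6 weeks, where 2.94% of all genes did, among them Rpl36 (log2 change 0.71), Rps21 (0.65) and Rplp1 (0.57). From 6 to 10 weeks 32 fell in WT, where 5.12% of all genes did, led by Rpl36 (-1.02), Rpl38 (-0.99), Rps27 (-0.93), Rps29 (-0.88) and Rps28 (-0.84). In 73 of the 80 the WT mean was higher at 6 weeks than at both other ages, as in 31.0% of all genes. These counts rested on a few libraries: without WT replicate 1 of 6 weeks the second was 4, and of the 5 genes named only Rpl36 kept its call. The first was then 0 by edgeR, as it was without WT replicate 2 of 3 weeks, where all libraries together gave 44 genes at an unadjusted p under 0.05, 17 by DESeq2 and 8 by limma voom. Both WT changes moved with messenger RNA length across the 78 protein-coding genes, which are not independent. Log2 length and log2 change had Pearson r = -0.56 from 3 to 6 weeks and 0.53 from 6 to 10 weeks. In KO the values were -0.18 and 0.29. Shorter messenger RNAs thus rose more and then fell more in WT. With the gene length offset fewer genes were called in WT from 6 to 10 weeks, as counted below.

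In KO, 4 fell from 3 to 6 weeks, where 6.25% of all genes did: Rps4l (log2 change -0.70), Rps2 (-0.55), Rpsa (-0.38) and Rpl6 (-0.27). With each library left out in turn, Rps2 kept its call in all 6 cases, while Rpl6 lost it in 6, Rps4l in 4 and Rpsa in 3 of 6. From 6 to 10 weeks in KO, 0 were called by edgeR (12.7% of all genes in either direction), with 3 at an unadjusted p under 0.05 and 1 by DESeq2. From 3 to 10 weeks, Rpl24, a protein of an intersubunit bridge, fell in WT (log2 change -0.45 ± 0.15 (SE), adjusted p = 0.048 by edgeR). Rps2 (-0.54 ± 0.10 (SE), adjusted p = 4.8e-04) and Rplp0 (-0.27 ± 0.09 (SE), adjusted p = 0.045) fell in KO by edgeR. These calls stood against 8.07% and 10.3% of all genes, and those of Rpl24 and Rplp0 were lost under several of the settings tried. The KO against WT comparison at 6 weeks and the WT comparisons with 6 weeks share the same 3 WT libraries of that age. The WT libraries of 10 weeks, used in each comparison with that group, stood apart from all others in the pseudogene Rpl15-ps2, described under the other observations.

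The genotype effect itself was compared between ages. It was lower at 6 than at 3 weeks for Rps2 (difference of log2 fold changes -0.77 ± 0.14 (SE), adjusted p = 0.0074 by edgeR) and Rplp2 (-0.66 ± 0.16 (SE), adjusted p = 0.042 by edgeR), where 1.1% of all genes passed in that direction. It was higher at 10 than at 6 weeks for 6 genes, where 3.12% of all genes passed: Rpl36, Rps27, Rps15a, Rps20, Rplp2 and Rps10. Rps10 and Rps20 belong to the head of the small subunit. The largest of these differences was that of Rpl36 (1.04 ± 0.23 (SE), adjusted p = 0.0098 by edgeR). Between 10 and 3 weeks 0 genes passed by edgeR (5.76% of all genes in either direction), with 2 at an unadjusted p under 0.05 and 0 by DESeq2 and limma voom. Most of the genes called lower at 6 weeks alone were therefore not shown to differ between ages.

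The 6-week difference moved with the length of the messenger RNA. Ribosomal protein messenger RNAs are short, with a median of 705 nt over the 78 protein-coding genes (principal transcript in M21, range 271 to 3706 nt). Across these 78 genes, all measured in the same libraries and so not independent, length on a log2 scale and the 6-week log2 fold change had Pearson r = 0.44 and Spearman rho = 0.50, shorter messenger RNAs being lower in KO. Of the 29 genes with 600 nt or less, 25 fell at 6 weeks (median log2 fold change -0.63), and of the 31 with 600 to 1000 nt, 20 (median -0.37). Rps20, listed with the longest messenger RNA, 3706 nt, and Rpl3l, with 1375 nt, fell as far as the shorter ones.

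Many other short messenger RNAs fell too. Of 216 other protein-coding genes with 600 nt or less, 95 were lower and 9 higher in KO at 6 weeks, with a median log2 fold change of -0.51. For the 182 of them outside the respiratory chain and the mitochondrial ribosome, the median was -0.41. The medians of longer classes were -0.24 for 600 to 1000 nt, -0.08 for 1000 to 2000 nt and 0.07 above 2000 nt. The WT library of 6 weeks, replicate 1, was highest for other short genes as well, with a median deviation of 0.575, against 0.539 for ribosomal protein genes (log2 CPM). An offset was fitted to each library's trend with annotated exon length over all other genes. With it, 41 of the 80 fell and 4 rose at 6 weeks, and the median was -0.32. Annotated exon length can differ widely from the mRNA length used above, and an offset by mRNA length was not fitted. RNA quality was not given for the libraries, and its part in the result was not tested.

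**Figure D5:**
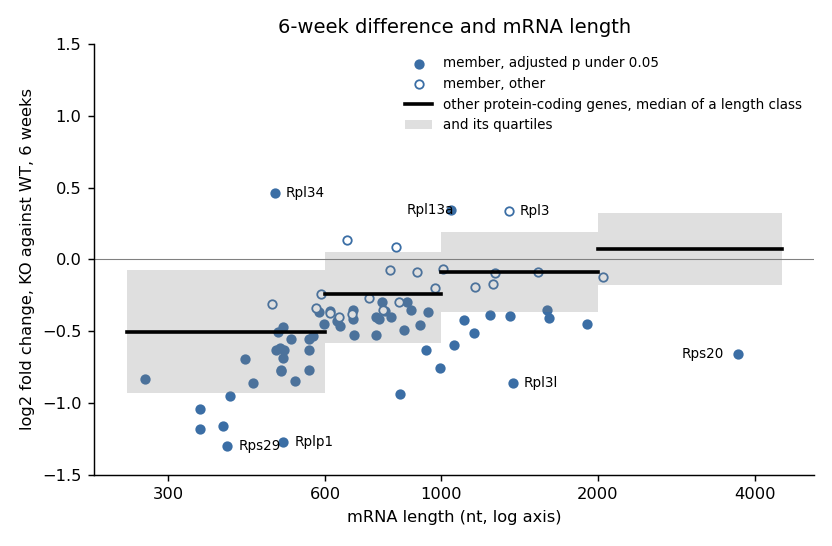
log2 fold change of KO against WT at 6 weeks against mRNA length (nt, log axis) for 78 ribosomal protein genes, filled where the adjusted p is under 0.05. Black lines and grey bands are the median and quartiles of other protein-coding genes in 4 length classes, whose medians run from -0.51 to 0.07.

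A run of C and T letters lay near the annotated start in most of the genes with a promoter sequence on hand. Such a run need not be the terminal oligopyrimidine tract of the messenger RNA. The search also covered bases before the start, where the run of Rps21 lies. RefSeq promoter sequences (GRCm38.p6) were on hand for 58 of the 80 genes. A run of 8 or more C or T letters lay on the strand of the gene within 40 bases either side of the annotated start in 46 of the 58 (79.3%), against 31.5% of 11323 other tested genes. On the other strand the shares were 20.7% and 34.8%. The letters CTTTC were found on the strand of the gene in 48.3% and 10.006%, and on the other strand in 12.1% and 9.73%; a CTTTC can lie inside such a run. The windows below show the 5 genes of the 58 with the lowest 6-week log2 fold change, then Rpl34 and Rpl13a, which were higher, and Rpl3l. Each runs 5′ to 3′ from 40 bases before to 30 after the annotated start, with the longest run of C and T in capitals where it has 8 or more letters.
Rpl38: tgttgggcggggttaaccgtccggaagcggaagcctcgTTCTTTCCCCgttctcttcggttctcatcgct
Rps27: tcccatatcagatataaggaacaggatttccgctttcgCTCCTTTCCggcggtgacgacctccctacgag
Rps21: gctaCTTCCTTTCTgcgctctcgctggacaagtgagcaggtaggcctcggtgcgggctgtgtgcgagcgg
Rpl37: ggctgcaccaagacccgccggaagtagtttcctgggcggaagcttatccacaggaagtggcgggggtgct
Rpl41: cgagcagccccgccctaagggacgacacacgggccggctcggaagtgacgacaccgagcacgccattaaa
Rpl34: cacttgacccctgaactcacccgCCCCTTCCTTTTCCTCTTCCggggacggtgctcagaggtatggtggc
Rpl13a: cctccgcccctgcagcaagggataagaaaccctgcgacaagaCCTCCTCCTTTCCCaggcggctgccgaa
Rpl3l: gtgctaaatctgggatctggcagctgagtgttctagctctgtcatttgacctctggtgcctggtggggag

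The windows are Rpl38 at chr11:114668540-114668609 on the plus strand, Rps27 at chr3:90213619-90213688 on the minus strand, Rps21 at chr2:180257409-180257478 on the plus strand, Rpl37 at chr15:5116573-5116642 on the plus strand. The others are Rpl41 at chr10:128549139-128549208 on the minus strand, Rpl34 at chr3:130730308-130730377 on the minus strand, Rpl13a at chr7:45128716-45128785 on the minus strand and Rpl3l at chr17:24727786-24727855 on the plus strand. Runs of 8 or more were present both in genes that fell (Rpl38, Rps27 and Rps21) and in genes called higher (Rpl13a, and Rpl34, whose rise is uncertain as said above). The windows of Rpl37, Rpl41 and Rpl3l hold none. Of the 46 genes with a run, 34 fell at 6 weeks (median log2 fold change -0.44), and of the 12 without, 8 fell (median -0.39). A missing run says only that these letters are not in the window around the start that RefSeq gives.

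Genes of the ribosome outside the symbol rule, with a few of their copies, were read in the same way. Of 10 such genes tested, 5 fell at 6 weeks, where 12.8% of all genes did, and the median log2 fold change was -0.35. Fau, which encodes a ubiquitin-like protein fused to a protein of the small subunit, was among them (-0.39 ± 0.13 (SE), adjusted p = 0.035 by edgeR), as was Rack1 (-0.31 ± 0.10 (SE), adjusted p = 0.026 by edgeR), a scaffold protein on the small subunit. Mitochondrial ribosomal proteins, which serve a separate ribosome, were lower in 58 of 78 genes at 6 weeks (median -0.51). At 3 and 10 weeks 12 and 19 of them were lower, where 6.68% and 14.7% of all genes were.

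Lists of genes that build, regulate or work with the ribosome were read beside the 12.8% of all genes called lower and 11% called higher at 6 weeks. At 10 weeks 14.7% of all genes were called lower and 14.6% higher, beside which the 10-week counts of these lists stand. Of 26 other translation genes whose messenger RNAs carry the pyrimidine tract, 5 fell at 6 weeks and 1 rose, with a median log2 fold change of -0.03. Tpt1 (-0.58) and Eef1b2 (-0.54), an elongation factor subunit, fell the most, and Pabpc1, the poly(A)-binding protein, rose (0.45). At 10 weeks 12 of the 26 rose (median 0.27), led by the initiation factors Eif4b (0.55 ± 0.10 (SE), adjusted p = 3.4e-04 by edgeR) and Eif3h (0.55 ± 0.10 (SE), adjusted p = 1.7e-04 by edgeR). Of 69 ribosome assembly genes, 2 rose and 3 fell at 6 weeks, and 13 rose and 2 fell at 10 weeks. Rrp12, which takes part in export of the subunits, rose at all 3 ages (log2 fold changes 1.37, 0.87 and 1.90).

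Of 26 genes of ribosomal RNA synthesis, 2 rose and 3 fell at 6 weeks, and 3 rose and 2 fell at 10 weeks. Myc, a driver of ribosome production, rose at 6 weeks (1.21 ± 0.38 (SE), adjusted p = 0.027 by edgeR) and 10 weeks (2.04 ± 0.38 (SE), adjusted p = 4.2e-04 by edgeR). Of 35 genes of translation control, 1 rose at 6 weeks, Larp1 (0.31), and 2 fell, Ddit4 (-0.79) and Eif2ak4 (-0.71), both brakes on translation. At 10 weeks 6 rose, led by Eif4ebp1 (0.76), a repressor of cap-dependent initiation that mTOR inactivates, and Eif4a1 (0.50).

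Markers of the cells in the wall were read beside these results. At 6 weeks 8 of 12 fibroblast markers were higher and 1 lower in KO, with a summed level of 2402 to 2493 CPM in WT and 3050.5 to 3792 CPM in KO. The summed level of 10 cardiomyocyte markers was 92280.4 to 104457 CPM in WT and 96035 to 108462 CPM in KO at 6 weeks, which overlapped. That of 11 endothelial markers was 1458 to 1503 CPM in WT and 978 to 1183 CPM in KO, with 3 called lower. That of 10 mural cell markers was 889.6 to 933 CPM in WT and 721 to 919 CPM in KO (4 lower, 1 higher), and that of 12 macrophage markers 355 to 451 and 281 to 339 CPM (2 lower, 1 higher). That of 6 red cell markers was 984 to 1622 CPM in WT and 534 to 1548 CPM in KO. That of 6 atrial markers, Nppa among them, was 467 to 507 CPM in WT and 7409 to 13403 CPM in KO. The summed level of 5 skeletal muscle markers was 3855 to 4668 CPM in WT and 10166 to 12149.8 CPM in KO at 6 weeks, most of it Acta1 (higher in KO) and Ckm (lower in KO), both also expressed by the heart, while Mylpf, Tnni2 and Tnnt3 were under 4 CPM in every library. T and NK cell markers (2 tested) summed to 1.58 to 1.92 CPM in WT and 1.15 to 1.96 CPM in KO, and 7 B cell markers to 14.3 to 18.2 and 10.3 to 27.7 CPM. Their part in the fall of ribosomal protein genes was not tested. Without the 3 libraries rich in atrial transcripts, 42 of the 80 fell and 1 rose at 6 weeks, and the median log2 fold change was -0.43.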

How the data were processed

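RNA sequencing counts were analysed for 18 libraries of mouse left ventricle, 3 for each genotype and age. The authors deposited raw read counts per gene. Per the submitters' processing notes the tools were Trimmomatic 0.36, STAR 2.5.2b and featureCounts of Subread 1.5.2, with the genome build GRCm38. The annotation release, the use of strand and the treatment of reads with several matches are not given in the sources used here. Gene IDs were named with GENCODE M21, in which 259 of the 49315 IDs had no name. Library totals ran from 14980968 to 23001047 counts, and the precision of genes with few counts is limited accordingly.

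From the deposited counts, genes were filtered with filterByExpr (minimum count 10, minimum total 15), scaled by TMM and fitted over all 6 groups with edgeR 4.0.16 (quasi-likelihood, robust, no covariate) in R 4.3.3. Adjusted p is Benjamini-Hochberg over 15778 genes, with a threshold of 0.05, and CPM are counts scaled to a common library size. SE was derived from the log2 fold change and F (log2 fold change over root F). Alternatives were RLE scaling, library totals only, scaling without mitochondrially encoded genes, no filter, limma 3.58.1 with voom, DESeq2 1.42.0, an offset for gene length, a block for the replicate number, only the groups of a contrast, and leaving out the atrial-rich libraries or each library in turn. Adding the counts of named pseudogenes, and the comparisons of neighbouring ages within a genotype, were chosen after seeing the data. Scripts were tested on simulated data.

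The genes and lists were chosen with earlier results of these data known. Named genes were all genes called in a contrast with 10 or fewer, otherwise the 5 largest changes in each direction among those called, with the paralog pairs, the P stalk genes, Rpsa, Rpl5 and Rpl11. Of the other lists, the 2 genes with the largest change in each direction among those called could be named. The pseudogenes and, at 6 weeks, Rps13, Rps15a, Rps20, Rpl18, Fau and Rack1, outside these rules, were named after their values were seen, as were the printed promoters. Transcripts of copies were compared by local alignment, and promoter sequences came from RefSeq. Some results by the same rules are not reported here.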

Additional observations from a re-analysis of the deposited data

Results flagged for a closer look

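For 7 genes the genotype effect differed between ages by the test of the difference itself (edgeR, adjusted over all genes). Between 3 and 6 weeks the difference of log2 fold changes was -0.77 for Rps2 and -0.66 for Rplp2. Between 6 and 10 weeks it was 1.04 for Rpl36, 1.02 for Rps27, 0.79 for Rps15a, 0.76 for Rps20, 0.60 for Rplp2 and 0.58 for Rps10. Of these, Rps2 and Rpl36 passed in all 12 cases where 1 library of the 4 groups compared was left out. Rplp2 lost its 3 to 6 week call in 10 of 12 such cases and its 6 to 10 week call in 8. Rps10 lost its call in 8, Rps15a in 9, Rps20 in 9 and Rps27 in 10 of 12. Each of the calls that was lost in some case was lost without WT replicate 1 of 6 weeks.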

How the results depend on the processing

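The 6-week fall kept its direction under every setting tried. Between 33 and 63 genes were called, in either direction, with 1 library left out, the low end without WT replicate 1. Over the other counts of genes called, leaving out 1 library gave 3 to 6 at 3 weeks and 6 to 9 at 10 weeks. For the differences between ages it gave 1 to 12 (6 against 3 weeks), 1 to 23 (10 against 6) and 0 to 1 (10 against 3). For WT it gave 0 to 5 (10 against 3 weeks), 0 to 25 (6 against 3) and 4 to 42 (10 against 6). For KO it gave 1 to 1, 1 to 3 and 0 to 1 in the same order. The difference in share, in percentage points, ran from -0.187 to 0.0423 at 3 weeks, -0.614 to -0.345 at 6 weeks and -0.241 to -0.221 at 10 weeks. With mitochondrially encoded genes left out of the total the 10-week difference was -0.371. The log2 ratio of Rpl3l to Rpl3 ran from -1.03 to -0.47, -1.29 to -1.06 and -1.69 to -1.23 at the 3 ages, and -1.23 to -1.04 over them.

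For KO against WT at 3 weeks (4 called), the count was 8 with no filter on low counts. For KO against WT at 10 weeks (8 called), the count was 13 with library totals only. For genotype effect at 6 against 3 weeks (2 called), the count was 1 with library totals only, 18 with no filter on low counts, 15 with DESeq2, 1 with only the groups of the contrast, 1 without libraries rich in atrial transcripts. For genotype effect at 10 against 6 weeks (6 called), the count was 1 with library totals only, 21 with no filter on low counts, 16 with DESeq2, 11 with only the groups of the contrast, 2 without libraries rich in atrial transcripts. For genotype effect at 10 against 3 weeks (0 called), the count was 1 with library totals only. For WT at 10 against 3 weeks (1 called), the count was 6 with library totals only, 6 with no filter on low counts, 2 with DESeq2, 0 with replicate block, 8 with only the groups of the contrast, 0 without libraries rich in atrial transcripts. For KO at 10 against 3 weeks (2 called), the count was 1 with RLE scaling, 31 with library totals only, 1 with mitochondrially encoded genes left out of scaling, 1 with DESeq2, 1 with gene length offset, 1 with replicate block, 1 without libraries rich in atrial transcripts. For WT at 6 against 3 weeks (8 called), the count was 4 with library totals only, 24 with no filter on low counts, 17 with DESeq2, 5 with only the groups of the contrast. For WT at 10 against 6 weeks (32 called), the count was 13 with gene length offset. For KO at 6 against 3 weeks (4 called), the count was 9 with DESeq2, 10 with gene length offset, 2 without libraries rich in atrial transcripts. For KO at 10 against 6 weeks (0 called), the count was 1 with DESeq2, 1 with gene length offset. The cause of these moves was not tested. Shares of all genes called, here and above, belong to the main fit with all libraries. They were not given for the other settings, so these counts have no such share beside them.

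Log2 fold changes of opposite sign were found with named pseudogene counts added for Rpl34 at 6 weeks (-0.11); with library totals only for Rpl10 at 6 weeks (0.012), Rps27l at 10 weeks (-0.030), Rpl22 at 10 weeks (-0.0075), Rpl7 at 10 weeks (-0.11), Rpl5 at 10 weeks (-0.039), Rpl11 at 10 weeks (-0.081). Smaller ones were found with RLE scaling for Rps27 at 10 weeks (0.015), Rpsa at 10 weeks (0.035); with DESeq2 for Rps27 at 10 weeks (0.016), Rpsa at 10 weeks (0.035); with gene length offset for Rps27 at 10 weeks (0.051), Rpsa at 10 weeks (0.019). The same happened with mitochondrially encoded genes left out of scaling for Rpsa at 10 weeks (0.017), with limma voom for Rpsa at 10 weeks (0.0013), with only the groups of the contrast for Rpsa at 10 weeks (0.018), without libraries rich in atrial transcripts for Rpsa at 10 weeks (0.035). The cause was not tested. Leaving out 1 library reversed only values that had not passed, which ran from -0.094 to 0.034 for Rps4x at 3 weeks, from -0.31 to 0.053 for Rpl39 at 3 weeks, from -0.14 to 0.030 for Rplp2 at 3 weeks, from -0.047 to 0.18 for Rpl5 at 3 weeks, from -0.044 to 0.082 for Rpl11 at 3 weeks, from -0.069 to 0.0012 for Rps4x at 10 weeks, from -0.072 to 0.085 for Rps27 at 10 weeks, from -0.058 to 0.062 for Rpsa at 10 weeks on the log2 scale. Of the 91 values of named genes, the settings that kept all libraries of a comparison or left out the atrial-rich ones gave 55 lost calls, 16 gained and 17 reversed among all their results. Leaving out 1 library gave 132, 8 and 13.

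WT and KO libraries of the same age and replicate number did not deviate together over all genes (correlations of -0.0844 to 0.0852). Such correlations cannot show a batch that is shared across ages or that touches only some genes. A replicate block gave 3, 58 and 8 genes called at 3, 6 and 10 weeks. For Rpl3l to Rpl3 the mean log2 ratio difference stays at -1.15, as it must with equal groups. With the block its exact two-sided permutation p was 0.0078 (512 arrangements), against 0.0005 (8000 arrangements) without it. Depth limits mainly the pseudogenes, several of which lie under 1 CPM.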

Other observations

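A pseudogene of a ribosomal protein gene stood apart in WT at 10 weeks. Rpl15-ps2, a copy of the large-subunit gene Rpl15, was at 6.11, 3.02 and 6.39 CPM in WT at 3 weeks, 7.91, 4.95 and 6.55 CPM at 6 weeks and 0.0493, 0.056 and 0.116 CPM at 10 weeks. In KO it was at 6.34, 7.33 and 4.86 CPM at 3 weeks, 4.37, 3.76 and 3.93 CPM at 6 weeks and 4.84, 6.46 and 3.67 CPM at 10 weeks. The WT libraries of 10 weeks lay below the 15 others. KO against WT at 10 weeks was 5.98 ± 0.48 (SE), adjusted p = 6.5e-09 by edgeR on the log2 scale. The labels give 1 background for all groups, and a difference between the animals of this group and the others was not tested. Another copy of Rps13 lay the other way from Rps13-ps1, but with overlap and under 1 CPM. Rps13-ps2 was at 0 to 0.197 CPM in the WT libraries and 0.111 to 0.911 CPM in the KO libraries. It is 100% identical to Rps13 over 453 aligned bases, so its counts depend on how reads that match both were counted.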
